A study of Mus musculus with 8 samples.

Results

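The mitochondrial carrier family, the SLC25 proteins with the uncoupling proteins Ucp2 and Ucp3, was followed in brown adipose tissue (BAT) of mice by RNA-Seq. Members were taken by name and not by any measured value: each autosomal gene in the deposited table whose symbol is Slc25a with a number, together with Ucp2 and Ucp3, but without Slc25a11, Slc25a12, Slc25a13, Slc25a20 and Slc25a44. This gave 40 genes of the 49452 listed. The X-linked carriers Slc25a5, Slc25a14, Slc25a43 and Slc25a53 are not among them, because 3 of the 8 libraries (both 22 °C libraries and CD replicate 6) list every X-linked gene at 0.

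BAT came from male C57BL/6 mice in 4 groups of 2 libraries each. The first pair of groups compared mice of 10 to 12 weeks of age kept at 22 °C (replicates 4 and 7) with mice moved to 4 °C for 24 h (replicates 2 and 11). By the methods, the cold-exposed mice went without food for the last 4 h, and fasting of the 22 °C mice is left unclear there. The second pair compared mice of 32 weeks of age after 28 weeks on a control diet (CD, replicates 6 and 8; the labels call it normal chow) with mice after 28 weeks on a high-fat diet (HFD, replicates 2 and 6). No transgene or knockout is involved in any group. The labels do not say that the libraries of a group are separate animals, so p-values measure the spread between these libraries.

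Carriers of this family lie mostly in the inner mitochondrial membrane and pass nucleotides, phosphate, cofactors, amino acids and metabolic acids between the cytosol and the matrix. Uncoupling proteins belong to the same family. In BAT the member outside this list, Ucp1, lets protons re-enter the matrix without ATP synthesis and so releases heat, while the other carriers supply and drain the matrix during that work.

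Upstream sequence is shown for the 2 members past threshold in the cold (Slc25a34 and Slc25a17) and for the 2 with the lowest adjusted p in the diet comparison (Slc25a25 and Ucp2), since these genes carry the comparisons below. The sequences are RefSeq promoters of GRCm38.p6, trimmed to the bases before the first exon, 5′ to 3′ on the gene's strand. Slc25a34 is chr4:141623835-141624084 (minus strand), Slc25a17 is chr15:81360813-81361015 (minus strand), Ucp2 is chr7:100493108-100493336 (plus strand), and Slc25a25 is the window chr2:32424067-32424316 (minus strand) at 1 of its 3 annotated starts, inside the span of the longer transcripts. Capitals mark a match to 1 of the 3 motifs searched, on either strand.
Slc25a34: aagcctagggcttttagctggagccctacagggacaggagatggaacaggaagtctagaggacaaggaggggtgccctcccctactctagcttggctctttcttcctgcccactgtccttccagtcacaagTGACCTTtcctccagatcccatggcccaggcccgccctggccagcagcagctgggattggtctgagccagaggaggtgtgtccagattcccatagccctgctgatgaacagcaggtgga
Slc25a17: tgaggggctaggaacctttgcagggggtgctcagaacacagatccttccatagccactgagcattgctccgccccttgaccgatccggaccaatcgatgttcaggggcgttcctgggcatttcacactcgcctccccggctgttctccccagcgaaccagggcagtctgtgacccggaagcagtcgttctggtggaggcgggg
Slc25a25: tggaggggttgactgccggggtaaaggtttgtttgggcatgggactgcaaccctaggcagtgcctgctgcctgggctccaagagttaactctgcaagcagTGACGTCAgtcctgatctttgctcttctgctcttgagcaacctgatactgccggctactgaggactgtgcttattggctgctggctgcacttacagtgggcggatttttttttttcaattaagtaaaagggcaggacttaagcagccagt
Ucp2: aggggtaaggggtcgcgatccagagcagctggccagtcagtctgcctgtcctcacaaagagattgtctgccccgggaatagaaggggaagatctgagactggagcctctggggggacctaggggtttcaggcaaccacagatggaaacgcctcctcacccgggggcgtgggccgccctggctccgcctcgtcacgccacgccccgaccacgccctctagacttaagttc

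The motifs were AAGGTCA (the half-site that estrogen-related receptors bind, TGACCTT on the other strand), TGACGTCA (the cAMP response element) and GCATGCGC (core of the NRF1 site, GCGCATGC on the other strand), and none of the 3 contains another. AAGGTCA was found in 4.08% of all 32851 promoters, and among the 30 members with a promoter entry only Slc25a34 held it, 119 bases before the start. TGACGTCA was found in 1.55% of all promoters and in 2 of the 37 promoters of members. These were that of Slc25a36 and the Slc25a25 window shown, 150 bases before its start. The windows at the other annotated starts of Slc25a25 held no match. GCATGCGC was found in 2.26% of all promoters and in those of Slc25a31 and Slc25a54. These matches describe letters in a window and do not show binding.

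Depth is not given by the table, but low values came out as whole multiples of what 1 fragment is worth (98.0% to 98.7% of low values within 0.1 fragment), which puts 1 fragment on a transcript of 2000 bases at 0.00438 to 0.00603 FPKM. The satellite-repeat gene Gm10800 exceeds 100 FPKM in HFD replicate 2, CD replicate 8, 4 °C replicate 11 and 22 °C replicate 4, which are called satellite-high libraries, 1 in each group. The label prefix of 22 °C, 4 °C and CD replicate 6 differs from that of CD replicate 8 and both HFD libraries, so leaving out CD replicate 6 gives the diet comparison within 1 prefix. All 9 brown adipocyte markers were found and none was at 0, with summed FPKM of 2776 to 10117 per library. In whole tissue, fewer cells of a type and less RNA per cell cannot be told apart.

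Carrier transcripts spanned a wide range of levels. Of the 40 members, 31 had a mean of at least 1 FPKM over the 8 libraries, 17 of at least 10 and 7 of at least 50, whereas 9 were below 1 and 4 of those below 0.1. Among the most abundant were Slc25a51 (NAD), Slc25a4 (ADP/ATP translocase 1), Slc25a39 (glutathione), Slc25a3 (phosphate), Slc25a1 (citrate) and Slc25a17 (peroxisomal cofactors). FPKM is per transcript length, so these levels can be set against each other, although Slc25a4 has the close paralogs Slc25a5 and Slc25a31, whose shared fragments the authors' counting could have split. At the bottom of the range, Slc25a21, Slc25a41 and Slc25a54 did not reach the filter of 0.1 FPKM in 2 libraries in either comparison. Slc25a41 and Slc25a54 were listed at 0 in some libraries, and the other 38 members were above 0 in all 8.

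**Figure D1:**
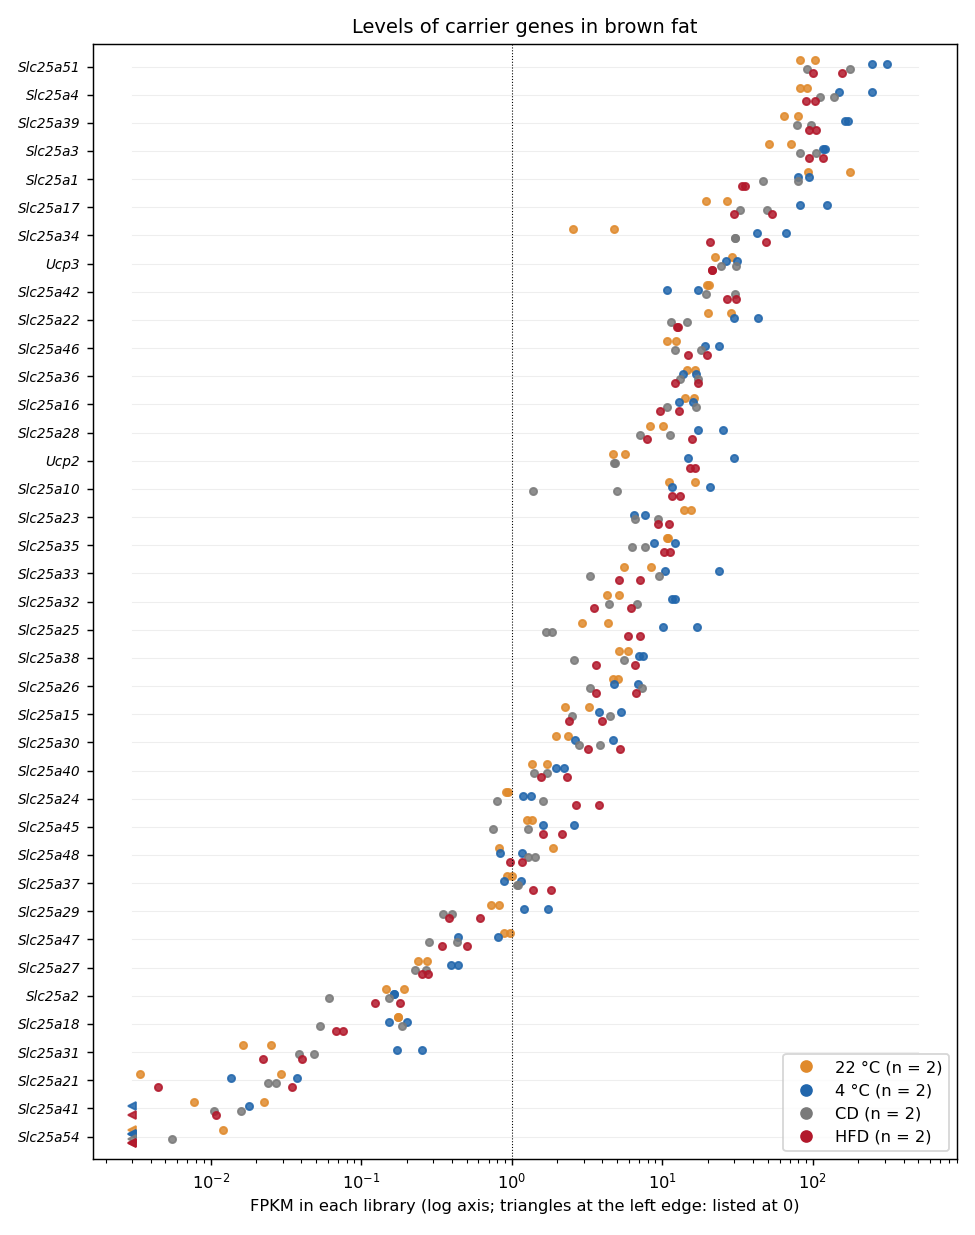
FPKM (log axis) of the carrier genes in the 8 BAT libraries, 1 point per library and coloured by group (n = 2 each), ordered by the mean; a dotted line marks 1 FPKM and triangles at the left edge stand for values listed at 0. Slc25a51, Slc25a4, Slc25a39 and Slc25a3 sit at the top, and the 22 °C points of Slc25a34 lie far left of its other points.

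The 40 members together summed to 657 and 830 FPKM in the 22 °C libraries and 1511 and 1194 FPKM in the 4 °C libraries. The CD libraries gave 953 and 695 FPKM, the HFD libraries 727 and 953 FPKM. Both 4 °C sums lay above all others, and the CD and HFD sums overlapped. The group means were 744 ± 122 (22 °C), 1353 ± 224 (4 °C), 824 ± 183 (CD) and 840 ± 160 FPKM (HFD; SD, n = 2 each). As a share of the FPKM sum of autosomal mRNA and lncRNA genes, the carriers took 0.327% and 0.420% in the 22 °C libraries, 0.513% and 0.494% in the 4 °C libraries, 0.376% and 0.386% with CD, and 0.329% and 0.366% with HFD. The 5 most abundant members held 59.5% to 64.5% of the carrier sum in each library. The leading member was Slc25a1 in both 22 °C libraries (134 ± 59.5 FPKM, SD, n = 2), Slc25a4 in CD replicate 8, and Slc25a51 in the other 5 libraries.

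The first comparison asked how BAT carriers differ after 24 h at 4 °C. Slc25a34, an orphan carrier, and Slc25a17, which passes cofactors such as coenzyme A and FAD across the peroxisomal membrane, rose, and no member passed the threshold as lower on the deposited scale. Of the 37 members tested with limma, 2 passed the threshold (adjusted p under 0.05 and at least 1 on the log2 scale), beside 1.44% of all 17470 genes tested (1.22% higher and 0.223% lower). By value alone, 22 members had both 4 °C libraries above both 22 °C libraries (59.5%, against 37.9% of all genes and 48.2% of mRNA genes averaging 1 FPKM or more) and 3 had both below (8.11%, against 20.6% and 15.2%). The median difference of the 37 was 0.29 in log2(FPKM + 1), against 0.07 over all genes and 0.22 over mRNA genes averaging 1 FPKM or more. At an unadjusted p under 0.05 there were 16 members (43.2%) against 24.5% of all genes. The 22 and the 16 include Slc25a31, which passed the filter on low values only through its 4 °C libraries, so that its place among the higher members was set by the filter. Leaving out genes that reached the filter in only 1 of the groups, a count added after the data were seen, 21 of 36 members were higher without overlap (58.3%, against 37.5% of genes) and 15 had an unadjusted p under 0.05 (41.7%, against 23.0%).

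Slc25a34 (ENSMUSG00000040740, chr4:141618824-141623821) showed the widest difference of the family. Its FPKM was 2.55 and 4.76 at 22 °C and 65.9 and 42.7 at 4 °C. Both cold libraries were far above both controls, and the means of 3.66 ± 1.56 and 54.3 ± 16.4 FPKM (SD, n = 2) differed 14.8-fold. The log2 difference was 3.58 (SE 0.34, limma adjusted p = 0.0223), with 3.62 between the satellite-high and 3.54 between the satellite-low libraries. Without 4 °C replicate 2 the difference was 3.27 and the adjusted p 0.119, a setting in which 1 gene of all those tested passed. In the older mice of the diet groups Slc25a34 was at 30.3 and 30.2 FPKM (CD) and at 20.6 and 49.0 FPKM (HFD), above both 22 °C libraries. The diet groups differ from the 22 °C mice in age, and all but CD replicate 6 (30.3 FPKM) also in label prefix, so that this is given as values only.

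Slc25a17 (ENSMUSG00000022404, chr15:81318921-81360765) was at 19.3 and 27.0 FPKM at 22 °C and at 123 and 82.3 FPKM at 4 °C, with no overlap. The means were 23.1 ± 5.38 and 103 ± 29.0 FPKM (SD, n = 2), 4.44-fold apart. The log2 difference was 2.09 (SE 0.30, limma adjusted p = 0.0466). This call was lost without 4 °C replicate 2 (1.81, adjusted p = 0.122) and narrowly missed the threshold without 4 °C replicate 11 (2.38).

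Among the 9 carriers of nucleotides and cofactors, which include Slc25a17, 4 were higher at 4 °C without overlap (44.4%, against 37.9% of all genes) and 1 was lower (11.1%, against 20.6%). Slc25a51, the NAD carrier, was at 82.7 and 103 FPKM at 22 °C and at 311 and 247 FPKM at 4 °C, with both cold libraries far above (log2 difference 1.57, SE 0.28, limma adjusted p = 0.0574). The other members of this group that separated upwards were Slc25a32, a carrier of folate and FAD (1.18, adjusted p = 0.0517), and Slc25a33, a pyrimidine nucleotide carrier (1.10, adjusted p = 0.189). These members missed the threshold, while their 4 °C libraries all lay above their controls. Slc25a42, a coenzyme A carrier, was at 20.3 and 19.7 FPKM at 22 °C and at 10.8 and 17.2 FPKM at 4 °C, so that both cold libraries were lower (log2 difference -0.52, SE 0.26, adjusted p = 0.289). Slc25a16, Slc25a26 and Slc25a36 overlapped between the groups, with differences of -0.07 to 0.20. Of the 40 members, 16 overlap some gene on the opposite strand. The libraries were directional, but whether the FPKM values were made with strand is not given in the sources used here, so such members are uncertain to that extent.

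The carriers that serve ATP turnover exchange ADP for ATP, bring in phosphate, or swap ATP-Mg for phosphate under control of calcium, and none of them passed the threshold. Slc25a3, Slc25a4, Slc25a24 and Slc25a25 were higher in both 4 °C libraries and Slc25a23 was lower in both, where 37.9% of all genes were higher and 20.6% lower in this way. Slc25a4 was at 91.2 and 81.8 FPKM at 22 °C and at 248 and 149 FPKM at 4 °C (1.15, SE 0.33, limma adjusted p = 0.117). Slc25a3 was at 50.9 and 72.0 FPKM and at 121 and 116 FPKM (0.96, SE 0.27, adjusted p = 0.113). Slc25a25 was at 4.37 and 2.91 FPKM and at 16.9 and 10.2 FPKM, 3.72-fold apart in the mean (1.63, SE 0.31, adjusted p = 0.0611). Its close relative Slc25a23 went the other way, with 14.0 and 15.4 FPKM at 22 °C and 7.69 and 6.44 FPKM at 4 °C (-0.96, SE 0.19, adjusted p = 0.0654). Slc25a24, the third of these ATP-Mg carriers, was near 1 FPKM, at 0.942 and 0.909 against 1.34 and 1.18 FPKM (0.23, adjusted p = 0.320, and -0.024 after median centring). Slc25a31, the translocase of testis, lay between 0.0164 and 0.254 FPKM and passed the filter only through the 4 °C libraries, so that its separation is not a result. Slc25a25 overlaps Naif1, and Slc25a23 overlaps Crb3, on the opposite strand.

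Skeletal muscle markers moved with this comparison: 11 of 12 listed were found, none was at 0, and all 11 were higher in both 4 °C libraries, with summed FPKM of 530 and 129 at 22 °C against 3809 and 1823 at 4 °C. Slc25a4 is abundant in muscle. In a fit over all 8 libraries with a muscle score as covariate, Slc25a4 stood at 1.15 (SE 0.62, limma adjusted p = 0.380), Slc25a34 at 4.49 (adjusted p = 0.108) and Slc25a17 at 2.89 (adjusted p = 0.137), and no gene of any kind passed in that fit. Beyond these values the part of muscle RNA in the carriers' differences was not tested.

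Fat cell markers moved with the cold too. Of the 9 brown adipocyte genes, 6 were higher in both 4 °C libraries (66.7%, against 37.9% of all genes) and 1 was lower, with a median difference of 0.64, and 3 passed the threshold with limma: Elovl3 (4.58, adjusted p = 0.0466), an elongase of very long fatty acids, Dio2 (3.01, adjusted p = 0.0196), which activates thyroid hormone, and the coactivator Ppargc1a (2.92, adjusted p = 0.0208). Of the 4 tested white adipocyte genes, Lep (-2.13, adjusted p = 0.0526) and Nnat (-1.85, adjusted p = 0.0517) were lower in both 4 °C libraries, Retn (1.27, adjusted p = 0.177) and Agt (1.60, adjusted p = 0.0751) were higher, and none passed. The summed FPKM of the white adipocyte genes was 141 and 79.8 at 22 °C and 250.3 and 127 at 4 °C, with overlap. The part of these genes in the carriers' values was not tested.

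Uncoupling proteins other than Ucp1 divided. Ucp2, found in many tissues and strongly in immune cells, was at 5.63 and 4.72 FPKM at 22 °C and at 29.8 and 14.7 FPKM at 4 °C. Its cold libraries were both higher, and 4 °C replicate 2 was the highest of all 8 libraries (log2 difference 1.84, SE 0.35, limma adjusted p = 0.0622). Ucp3, the muscle and brown fat paralog, was at 22.2 and 28.9 FPKM at 22 °C and at 31.4 and 26.4 FPKM at 4 °C, with overlap (0.18, SE 0.23, adjusted p = 0.680). Ucp2 and Ucp3 are neighbours on chromosome 7. Of the carriers close to them, Slc25a30 was higher in both cold libraries at 0.52 (adjusted p = 0.287) and Slc25a27, below 1 FPKM throughout, at 0.17 (adjusted p = 0.197). Ucp1 itself was at 699 and 1427 FPKM at 22 °C and at 6462 and 5371 FPKM at 4 °C. The 10 macrophage markers, all found and none at 0, summed to 95.3 and 69.1 FPKM at 22 °C and to 158 and 76.8 FPKM at 4 °C, and 1 of 10 was higher without overlap. Ucp2 overlaps Dnajb13, and Ucp3 overlaps Gm10603, on the opposite strand.

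None of the 8 carriers of amino acids and glutathione passed the threshold. In 6 of them both 4 °C libraries were above both controls and in none below (37.9% and 20.6% of all genes), and 1 of the 6, Slc25a38, had the other sign after scaling to the autosomal sum. Slc25a39, which carries glutathione into the matrix, was at 64.1 and 79.5 FPKM at 22 °C and at 172 and 163 FPKM at 4 °C, 2.33-fold apart in the mean (1.22, SE 0.25, limma adjusted p = 0.0658). Its replicates lay close together in each group. Slc25a40 (its paralog), Slc25a38 (glycine for heme synthesis), Slc25a15 (ornithine), Slc25a22 (glutamate) and Slc25a29 (basic amino acids) differed by 0.29 to 0.56 with adjusted p of 0.153 to 0.335, and Slc25a2 and Slc25a18, both under 1 FPKM, overlapped.

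The mitoferrins, which bring iron into the matrix, split. Slc25a28 (mitoferrin 2) was at 8.29 and 10.1 FPKM at 22 °C and at 25.3 and 17.3 FPKM at 4 °C (1.11, SE 0.25, limma adjusted p = 0.0814), and Slc25a37 (mitoferrin 1), near 1 FPKM, overlapped between the groups (0.03, adjusted p = 0.902). Both carriers of metabolic acids overlapped. Slc25a1, which exports citrate for lipid synthesis, was at 92.1 and 176 FPKM at 22 °C and at 93.5 and 79.1 FPKM at 4 °C (-0.56, SE 0.37, adjusted p = 0.398, and 0.076 with the muscle covariate). Its difference was -1.03 without 22 °C replicate 4 and -0.098 without 22 °C replicate 7. Slc25a10, the dicarboxylate carrier, was at 16.3 and 11.1 FPKM and at 20.8 and 11.5 FPKM (0.19, adjusted p = 0.772). Of the remaining members besides Slc25a34, the outer membrane protein Slc25a46 (0.85, adjusted p = 0.0945) and the orphan Slc25a45 (0.41, adjusted p = 0.283) were higher in both cold libraries, the liver carrier Slc25a47 was lower in both (-0.25, adjusted p = 0.340), and the orphans Slc25a35 (10.7 and 10.8 against 8.75 and 12.2 FPKM) and Slc25a48 overlapped.

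**Figure D2:**
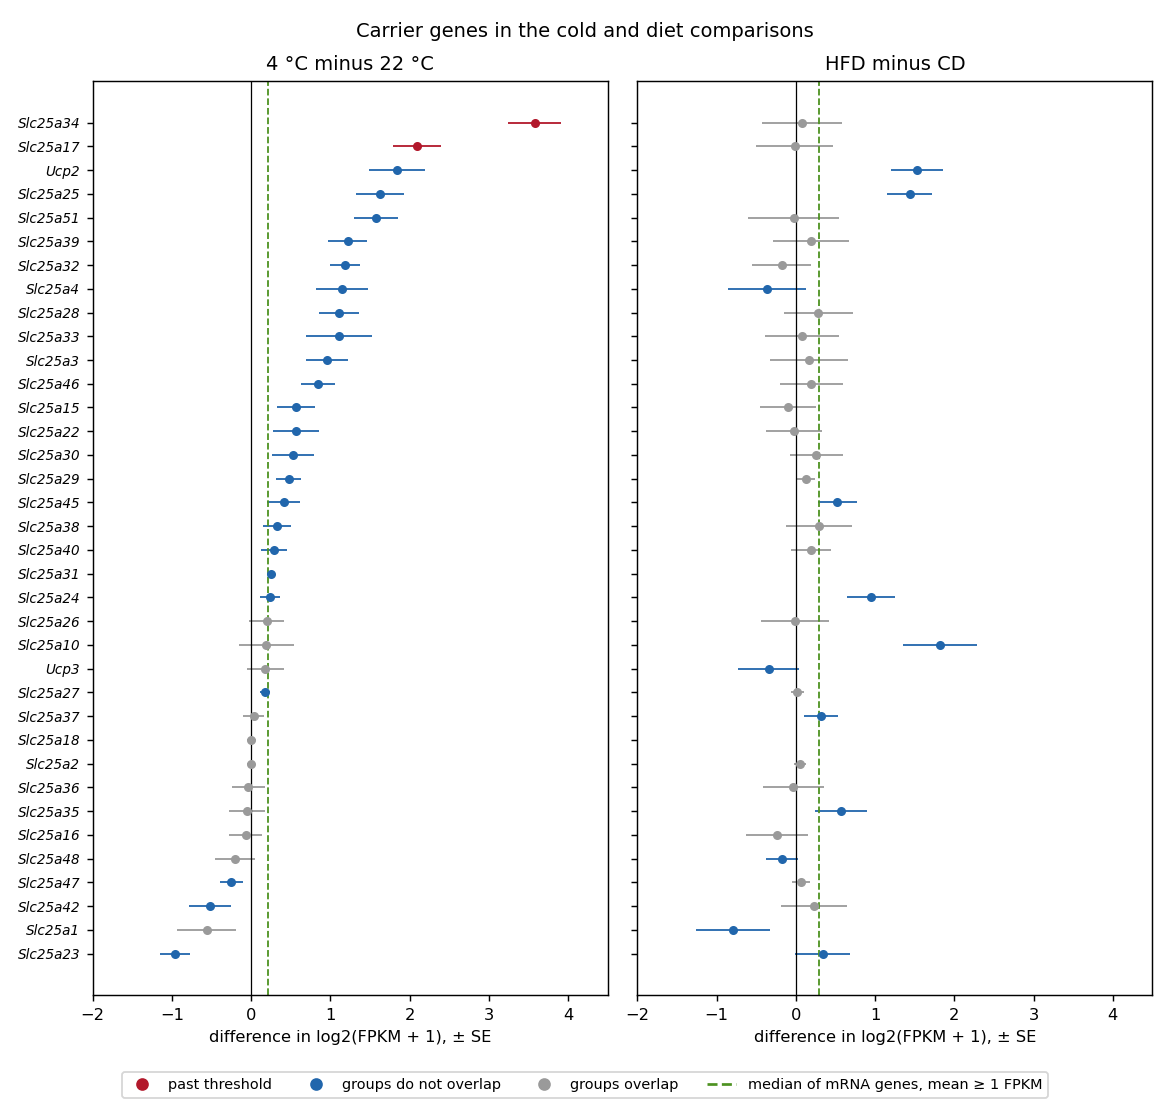
Difference in log2(FPKM + 1) with its SE for tested carriers, 4 °C minus 22 °C on the left and HFD minus CD on the right, in the order of the cold difference; red marks genes past threshold, blue genes whose 2 groups do not overlap, grey genes whose groups overlap, and the dashed line the median of mRNA genes averaging 1 FPKM or more (0.22 and 0.30). Slc25a34 (3.58) and Slc25a17 (2.09) are past threshold in the cold, and Slc25a10, Ucp2 and Slc25a25 lie farthest to the right in the diet panel.

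Both 22 °C libraries list every X-linked gene at 0 and have 0 and 1 genes of the mitochondrial genome above 0. The 4 °C libraries have 781 and 840 X-linked genes above 0, and 15 mitochondrial genes each. This gap coincides with the comparison, and its part in the carriers' values was not tested. The FPKM sum of autosomal mRNA and lncRNA genes was itself higher in both 4 °C libraries, so the counts were repeated on other scales. After median centring, which moved the median of all genes from 0.07 to -0.18, 15 members were higher without overlap (40.5%, against 20.0% of all genes) and 9 were lower (24.3%, against 47.3%), and 6 members passed the threshold (5 higher, and Slc25a23 lower) beside 4.32% of all genes. After scaling to the sum of autosomal mRNA and lncRNA, 14 were higher (37.8%, against 18.3%) and 13 lower (35.1%, against 45.0%), and 6 passed beside 3.27% of all genes. Under the deposited scale, quantile normalization and both of these, 13 members stayed higher without overlap (Slc25a3, Slc25a4, Slc25a17, Slc25a25, Slc25a28, Slc25a29, Slc25a32, Slc25a33, Slc25a34, Slc25a39, Slc25a46, Slc25a51 and Ucp2) and 3 stayed lower (Slc25a23, Slc25a42 and Slc25a47). These were 35.1% and 8.11% of the members, against 14.4% and 20.4% of the 17325 genes tested on all 4 scales. The sign of the difference changed under at least 1 scaling for 9 members (24.3%, against 34.7% of those genes), of which Slc25a24, Slc25a27, Slc25a31 and Slc25a38 were higher without overlap as deposited. With library type as a covariate, 9 of 37 members passed, all higher, beside 4.92% of all genes: Slc25a17, Slc25a25, Slc25a28, Slc25a32, Slc25a33, Slc25a34, Slc25a39, Slc25a51 and Ucp2. Across the 15 settings run, Slc25a34 passed in 11, Slc25a17 in 10, Ucp2 in 8 and Slc25a25 in 7. No member passed without the filter on low values, without the intensity trend or with the muscle covariate, settings in which no gene of any kind passed, or without 4 °C replicate 2, where 0.00595% of all genes did.

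**Figure D3:**
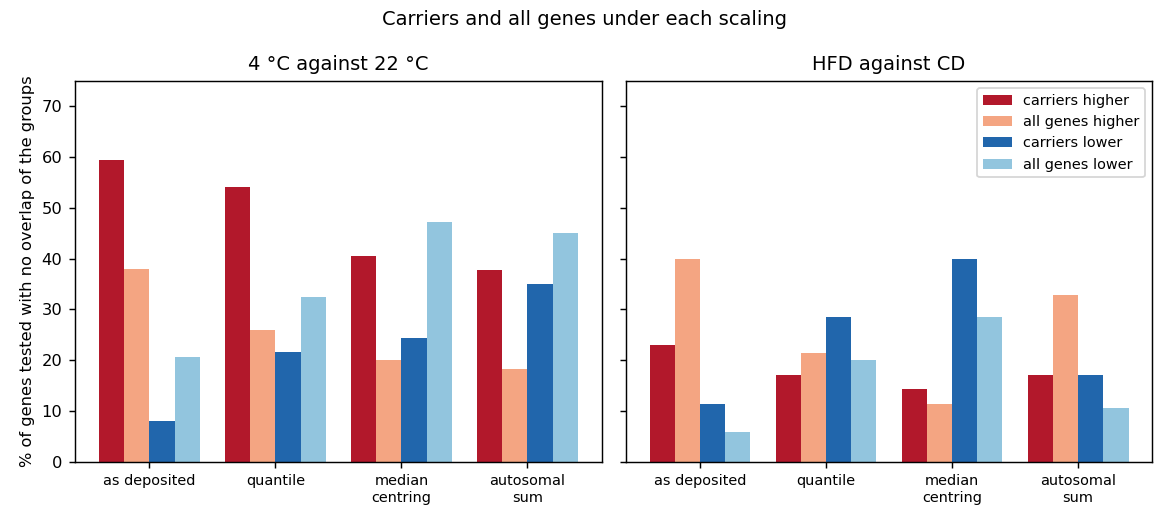
Share (%) of tested genes whose groups do not overlap, for the carriers (dark bars) and all genes (light bars), higher (red) or lower (blue) in the second group, under the deposited scale and 3 other scalings. In the cold panel the carriers' share of higher genes stands above that of all genes under each scaling (59.5% against 37.9% as deposited), while in the diet panel it is 22.9% against 39.9% as deposited and 14.3% against 11.3% after median centring.

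The second comparison asked how the carriers differ after long HFD feeding. None of the 35 members tested passed the threshold with limma, beside 0.0684% of all 17535 genes, and 4 had an unadjusted p under 0.05 (11.4%, against 14.4% of all genes). Both HFD libraries lay above both CD libraries for 8 members (22.9%, against 39.9% of all genes and 40.2% of mRNA genes averaging 1 FPKM or more) and below for 4 (11.4%, against 5.8% and 4.0%). The members' median difference was 0.12, against 0.18 over all genes and 0.30 over those mRNA genes. It was -0.23 after median centring, -0.070 after quantile normalization and -0.28 with the muscle covariate (all genes -0.18, -0.0063 and 0.073). Leaving out 1 library it ran from -0.016 to 0.33 (all genes 0.10 to 0.30). Under all 4 scalings, Slc25a10, Slc25a24, Slc25a25, Slc25a45 and Ucp2 stayed higher without overlap and Slc25a1, Slc25a4 and Slc25a48 stayed lower (14.3% and 8.57%, against 10.6% and 5.24% of the 17418 genes tested on all 4), while 17 members changed sign under at least 1 scaling (48.6%, against 50.5%). After median centring, 14.3% of the members were higher without overlap, against 11.3% of all genes, and 40.0% were lower, against 28.5%. After scaling to the autosomal sum, 17.1% were higher, against 32.9%, and 17.1% lower, against 10.6%. After quantile normalization the shares were 17.1% against 21.5% higher and 28.6% against 20.1% lower.

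White adipocyte markers moved with the diet comparison as well. All 5 listed were found, Hoxc9 was listed at 0 in some libraries, and the summed FPKM was 20.7 and 11.9 under CD against 164 and 172 under HFD. Of the 4 tested, 3 were higher without overlap and 2 passed the threshold with limma, Lep (2.93 and 0.307 FPKM under CD, 61.7 and 83.5 FPKM under HFD) and Nnat (5.27 and 3.33 FPKM under CD, 88.7 and 70.6 FPKM under HFD), both at an adjusted p of 0.0425. Of the 9 listed brown adipocyte genes, 3 were higher under HFD without overlap, 2 were lower, none passed the threshold (limma adjusted p of 0.118 or more) and the median difference was -0.15, the range running from -3.14 for Elovl3 to 0.86 for Dio2. The part of these markers in the carriers' values was not tested.

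The carriers with the largest differences were the dicarboxylate carrier Slc25a10, the uncoupling protein Ucp2 and the ATP-Mg carrier Slc25a25. Slc25a10, which swaps malate and succinate for phosphate, was at 4.99 and 1.38 FPKM under CD and at 13.1 and 11.5 FPKM under HFD. Both HFD libraries were higher, 3.87-fold in the mean, but the CD libraries differed widely from each other (log2 difference 1.82, SE 0.46, limma adjusted p = 0.170). Without CD replicate 6 the difference was 2.48 and without CD replicate 8 it was 1.15. Slc25a10 overlaps Gm11788 on the opposite strand.

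Ucp2 was at 4.78 and 4.83 FPKM under CD and at 15.2 and 16.4 FPKM under HFD, with close replicates and no overlap, 3.28-fold in the mean (1.53, SE 0.32, limma adjusted p = 0.151). The 10 macrophage markers were all higher in both HFD libraries, with a median difference of 1.62 and sums of 139 and 52.4 FPKM under CD against 289 and 326 FPKM under HFD. Their part in the Ucp2 difference was not tested. Between the satellite-high libraries Ucp2 differed by 1.47 and between the satellite-low libraries by 1.59. Ucp3 was at 24.4 and 30.6 FPKM under CD and at 21.2 and 21.4 FPKM under HFD, lower in both HFD libraries (-0.35, SE 0.39, adjusted p = 0.730).

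Slc25a25 was at 1.84 and 1.70 FPKM under CD and at 5.95 and 7.06 FPKM under HFD, 3.68-fold in the mean (1.43, SE 0.29, limma adjusted p = 0.146). Its relative Slc25a24 was at 1.62 and 0.795 FPKM and at 2.65 and 3.78 FPKM (0.95, SE 0.30, adjusted p = 0.228), and Slc25a23 was also higher in both HFD libraries (0.34, adjusted p = 0.705). None of these ATP-Mg carriers passed the threshold, and Slc25a23 had the other sign after median centring. With library type as a covariate, Slc25a10 (adjusted p = 0.0175), Slc25a25 (0.00554) and Ucp2 (0.00519) passed, beside 4.24% of all genes, and without CD replicate 6 these and Slc25a24 passed, beside 4.23% of all genes.

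Slc25a35, an orphan carrier, was at 6.29 and 7.62 FPKM under CD and at 11.3 and 10.2 FPKM under HFD (0.57, SE 0.33, limma adjusted p = 0.491), and it overlaps Rangrf on the opposite strand. Slc25a45 (0.52, adjusted p = 0.379) and the mitoferrin Slc25a37 (0.31, adjusted p = 0.557, with the other sign after median centring) were the other members higher without overlap. Beside Slc25a37, 5 of 7 listed erythroid markers were found, among them X-linked Alas2, listed at 0 in CD replicate 6. Their summed FPKM was 156 and 99.8 under CD and 195 and 393 under HFD, mostly from Hba-a1 and Hba-a2. Among the 3 tested, 1 was higher under HFD without overlap (33.3%, against 39.9% of all genes). The part of these markers in the Slc25a37 values was not tested.

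Lower in both HFD libraries were Slc25a1, Slc25a4, Slc25a48 and Ucp3. Slc25a1 was at 79.5 and 46.8 FPKM under CD and at 35.5 and 33.9 FPKM under HFD (-0.80, SE 0.46, limma adjusted p = 0.492). Its 22 °C libraries, in the younger mice, were higher than all 4 of these. All but CD replicate 6 (79.5 FPKM) also differ from the 22 °C libraries in label prefix, so that this is given as values only. Slc25a4 was at 138 and 111 FPKM under CD and at 89.5 and 103 FPKM under HFD (-0.37, SE 0.49, adjusted p = 0.775), while 10 of 11 muscle markers were lower in both HFD libraries, with sums of 538 and 1437 FPKM under CD and 192 and 39.1 FPKM under HFD. The part of muscle RNA in this difference was not tested beyond the covariate fit, where Slc25a4 stood at -0.37 (SE 0.63). None of the 9 nucleotide and cofactor carriers and none of the 7 tested amino acid and glutathione carriers separated, where 39.9% of all genes were higher and 5.8% lower without overlap. Slc25a34 (0.07), Slc25a17 (-0.01), Slc25a51 (-0.03), Slc25a39 (0.19), Slc25a3 (0.16) and Slc25a42 (0.23) all overlapped, with adjusted p of 0.844 to 0.993.

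**Figure D4:**
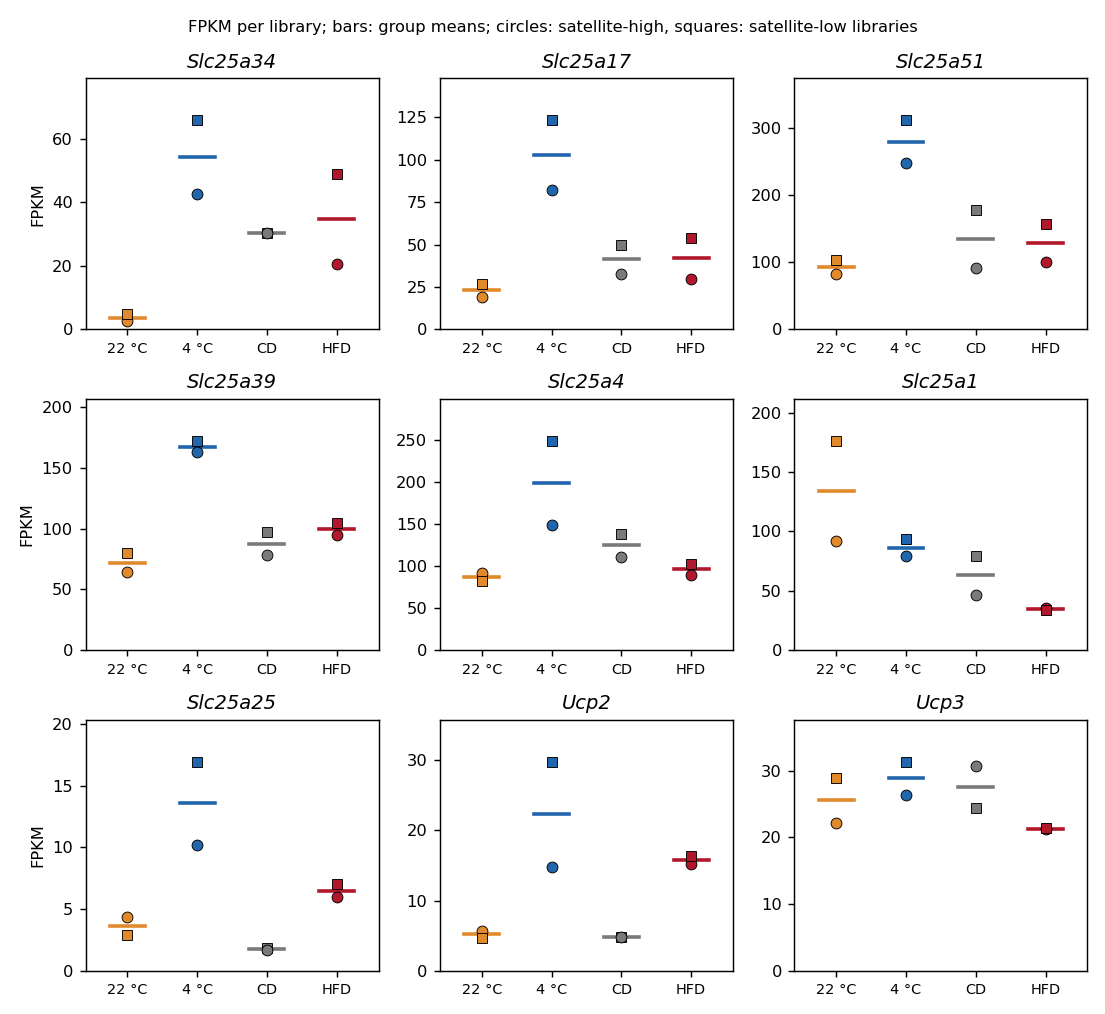
FPKM of 9 carriers in each library, with group means as bars, circles for satellite-high and squares for satellite-low libraries. The group means of Slc25a34, Slc25a17, Slc25a51 and Slc25a39 are highest at 4 °C (54.3 FPKM for Slc25a34), Slc25a25 and Ucp2 are higher in both treated groups than in their own controls, and Ucp3 lies between 21.2 and 31.4 FPKM throughout.

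The cold and diet differences use separate libraries, and their difference was tested in 1 fit over all 8. No member passed, beside 1.04% of all 18894 genes, and 9 of 37 had an unadjusted p under 0.05 (24.3%, against 18.4% of all genes). The 9 include Slc25a31, which passed the filter only through its 4 °C libraries, so that its place among them is not a result. The lowest adjusted p was that of Slc25a34, with a cold difference 3.51 larger than its diet difference (SE 0.63, limma adjusted p = 0.0511). Slc25a23 differed by -1.30 (adjusted p = 0.106) and Slc25a17 by 2.11 (adjusted p = 0.114). Ucp2 (0.31, SE 0.45, adjusted p = 0.788) and Slc25a25 (0.19, SE 0.40, adjusted p = 0.861) had like estimates in both comparisons. Of the 35 members tested in both, Slc25a24, Slc25a25, Slc25a45 and Ucp2 were higher without overlap in both (11.4%, against 14.6% of all genes), Slc25a4 was higher in the cold and lower under HFD, and Slc25a23 lower in the cold and higher under HFD.

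Other genes of mitochondrial transport outside the family (pyruvate carriers, calcium uptake, porins, import of proteins, sideroflexins; 31 of 33 found, 30 tested) were set beside the carriers. In the cold, 24 of 30 were higher without overlap (80.0%, against 37.9% of all genes) and 1 was lower (3.33%, against 20.6%), with a median of 0.60 and none past threshold with limma (13 at an unadjusted p under 0.05). The largest differences were those of Letm1 (2.04, adjusted p = 0.0517), Timm17a (1.11) and Tomm40 (0.98). Under HFD, 6 were higher (20.0%, against 39.9% of all genes) and 1 lower (3.33%, against 5.8%), with a median of 0.11 and none past threshold (1 at an unadjusted p under 0.05). The carriers' medians of 0.29 and 0.12 stand beside these, and the difference between the lists was not tested.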

How the data were processed

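BAT RNA was depleted of rRNA and sequenced from directional libraries by the authors, who mapped reads to GRCm38 with TopHat2 (2.0.10) and ran Cufflinks (2.2.1 in the submitters' processing notes, which also list FastQC 0.10.1, STAR, DESeq2 and R 3.2.2). The deposited values are FPKM, 1 for each gene in each library, with a column for every library. As the table holds no counts, their DESeq2 test was not repeated. X, Y and mitochondrial genes were left out. Tests ran on log2(FPKM + 1) in limma 3.58.1 under R 4.3.3 (eBayes with intensity trend, 4 libraries per comparison, no covariate), in autosomal genes with at least 0.1 FPKM in 2 libraries, after the script was tested on simulated data. The pseudocount of 1 understates changes of low genes. P-values are two-sided and Benjamini-Hochberg adjusted over all genes tested, and with 2 libraries per group an exact permutation test could not reach 0.05. Alternatives covered the pseudocount (0.1), filters, scalings, covariates, the variance prior and leaving out each library. The contrast of the cold and diet differences was added after seeing the data.

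Gene positions are those of the deposited table (GRCm38), from base 1, and 31 of the 40 members have the same position in GENCODE M21. Values per library were planned for Ucp2, Ucp3, members past threshold, the 10 members highest in mean FPKM and, per comparison, the 6 with the largest difference at a mean of at least 1 FPKM. Slc25a23, Slc25a28 and Slc25a31 were shown in addition after their values were seen, and the remaining members are given by their differences. 1 member enters the counts and is not reported here by name. The members and the lists were chosen with earlier results of these data known. Fragment steps speak to counting error alone, since no molecular identifiers mark separate molecules.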

Additional observations from a re-analysis of the deposited data

How the results depend on the processing

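No pairing by replicate number was possible because 22 °C and 4 °C share no replicate number and CD and HFD share only 1. Each group holds 1 satellite-high and 1 satellite-low library, and the fits with library type as a covariate compare within these types. With 2 libraries per group, calls rest on few degrees of freedom, and where 1 library is left out the lone library is assumed to vary like the other group. For the carriers in the cold (2 past threshold), the count was 0 with no filter, 0 without the intensity trend and 0 with the muscle covariate (0 genes of any kind passed in these), 4 with quantile normalization (2.80% of all genes passed), 4 with all 8 libraries in the fit (2.51%), 5 with the filter at 1 FPKM (4.84%), 6 after median centring, 6 after scaling to the autosomal sum, 9 with library type, and leaving out 1 library 0 to 5: 4 without 22 °C replicate 4 (3.05% of all genes), 5 without 22 °C replicate 7 (4.55%), 0 without 4 °C replicate 2 (0.00595%) and 2 without 4 °C replicate 11 (2.67%). Their median (0.29) was 0.54 with a pseudocount of 0.1, 0.47 with the filter at 1 FPKM, 0.034 after median centring, 0.16 after quantile normalization, 0.072 after scaling to the autosomal sum, 0.64 with the muscle covariate, 0.37 within satellite-low libraries and 0.20 to 0.50 leaving out 1 library (0.019 to 0.14 over all genes). Carriers higher without overlap (22) numbered 14 after scaling to the autosomal sum. Those lower (3) numbered 9 after median centring, 8 after quantile normalization, 13 after scaling to the autosomal sum and 3 to 7 leaving out 1 library (8.11% to 19.4% of carriers, against 26.4% to 37.0% of all genes). Other mitochondrial transport genes past threshold in the cold (0) numbered 1 with the pseudocount of 0.1, the filter at 1 FPKM, median centring, the autosomal sum or all 8 libraries, 2 with library type, and 0 to 1 leaving out 1 library. Under HFD, carriers past threshold (0) numbered 3 with library type (4.24% of all genes) and 0 to 4 leaving out 1 library, the 4 being without CD replicate 6 (4.23%), with 0 beside 0.59% to 2.08% in the rest. Their median (0.12) was -0.23 after median centring, -0.070 after quantile normalization, -0.28 with the muscle covariate and -0.016 to 0.33 leaving out 1 library (0.10 to 0.30 over all genes). Carriers higher without overlap (8) numbered 5 after median centring and 9 to 23 leaving out 1 library (25.7% of carriers against 47.0% of all genes without HFD replicate 6, 60.0% against 69.7% without CD replicate 6, 65.7% against 66.0% without HFD replicate 2), and those lower (4) numbered 14 after median centring, 10 after quantile normalization and 4 to 10 leaving out 1 library (28.6% of carriers without CD replicate 8 or HFD replicate 6, against 20.1% and 14.6% of all genes, 14.3% against 12.7% without CD replicate 6 and 11.4% against 8.59% without HFD replicate 2). Of the named members, a sign change in a difference larger than its SE occurred for Slc25a1 in the cold with the muscle covariate (0.076) and Slc25a24 in the cold after median centring (-0.024). Apart from the constructions named (fewer libraries, fewer genes or more covariates), the cause was not tested. Of all values recomputed for named members, 441 kept their side of the threshold without such a sign change, 28 newly passed it and 9 no longer did. The 441 include sign changes in differences smaller than their SE, such as those of Ucp3 and Slc25a10 in the cold under other scalings. Carriers at 0.1 FPKM or less rest on few fragments.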
